A study of Mus musculus with 19 samples.

Results

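Goblet cells are the mucus-secreting cells of the airway lining, and type 2 inflammation is the response to allergens and worms that drives them. Described here are 9 genes listed as products of these cells and of that response, with Reg3g among them as an antimicrobial gene. The 9 are Muc5ac, Fcgbp, Clca1, Agr2, Tff2, Chil4, Retnla, Arg1 and Reg3g. They are 9 of 21839 genes in a table of read counts from whole mouse lung, and all 9 passed the filter on low counts that left 15143 genes for testing. They were chosen by what they were known to do and by measured values in these same lungs, namely a rise from day 2 to day 16 and lower values in day 16 lungs of nicotine-exposed offspring. Differences in those comparisons are therefore given as a description, with no test. Tests are given for nicotine at day 2 and for sex, which the choice did not use.

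The lungs came from 19 wild type C57BL/6J offspring. The nicotine groups had dams that drank 200 mg/L nicotine in water sweetened with 2% saccharin from mating, through pregnancy and nursing, and the saccharin groups had dams that drank the 2% saccharin water without nicotine, so every mouse shared the saccharin exposure. Of the saccharin offspring 6 were taken 2 days after birth, 4 of them female, and 5 at 16 days, 2 of them female. Of the nicotine offspring 5 were taken at day 2, 3 of them female, and 3 at day 16, 2 of them female. Ages follow the age field of each sample's labels. The protocol text shared by all samples names day 2 alone, with 6 saccharin and 5 nicotine lungs. The age field gives the same numbers at day 2. Day 16 is missing from the protocol text, and that difference was not resolved. The labels do not say which pups shared a dam, so a p-value here treats every pup as independent. Replicate numbers only name mice.

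Airway mucus is a gel of large glycoproteins, of which Muc5ac and Muc5b are the main ones, together with proteins that bind or process them. The cytokines interleukin 4 and interleukin 13, acting through the receptor Il4ra and the transcription factor Stat6, turn club cells into goblet cells and raise these mucus genes. In macrophages and other cells the same signal raises Chil4, Retnla and Arg1, which are widely used as markers of a type 2 response in the mouse lung.

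Promoter sequences of the type 2 members are shown because Stat6 is the factor textbooks place upstream of them. RefSeq (GRCm38.p6) promoter entries were found for 5 of the 9 members, Fcgbp, Agr2, Chil4, Retnla and Reg3g, and not for Muc5ac, Clca1, Tff2 or Arg1. Shown are the 250 bases before the RefSeq start of the first transcript, 5′ to 3′ on the gene's strand. Capitals mark a match to TTCNNNNGAA, the spacing Stat6 prefers, in Retnla and to TTCNNNGAA, the spacing of other Stat factors, in Chil4. Retnla lies on the plus strand at chr16:48842359-48842608, and Chil4 on the minus strand at chr3:106219480-106219729.
Retnla: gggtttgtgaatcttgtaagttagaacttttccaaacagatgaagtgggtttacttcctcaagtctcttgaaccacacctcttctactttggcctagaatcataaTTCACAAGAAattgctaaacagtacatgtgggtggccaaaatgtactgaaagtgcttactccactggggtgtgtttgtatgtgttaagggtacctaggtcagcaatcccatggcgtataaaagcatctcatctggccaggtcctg
Chil4: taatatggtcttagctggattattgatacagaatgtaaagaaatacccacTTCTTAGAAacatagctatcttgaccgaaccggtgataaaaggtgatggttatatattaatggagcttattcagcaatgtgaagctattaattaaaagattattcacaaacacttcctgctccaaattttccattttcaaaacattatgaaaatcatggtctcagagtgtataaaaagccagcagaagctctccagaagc
The Retnla match began at position -145 and the Chil4 match at position -200, counted from the start. Among the 5 member promoters, over windows that add 50 bases after the start, TTCNNNNGAA was found in Retnla alone and TTCNNNGAA in Chil4 alone. Of 32851 RefSeq promoters of the same length, 6.95% held TTCNNNNGAA and 8.3% held TTCNNNGAA, both strands searched. The core of the goblet cell factor Spdef, AGGATG on either strand, was found in Fcgbp at position -107 and in Reg3g at position 5, against 17.2% of all promoters. A TATAAA box on the sense strand began at positions -30, -31 and -27 in Retnla, Chil4 and Reg3g, and 8.32% of all promoters held one. The Foxa core TGTTTAC was in none of the 5, and in 3.65% of all promoters. A match is a run of letters and not a measured binding site.

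Total counts ran from 12976749 to 27302477 per mouse. Day 16 libraries held 22459604 to 26673379 counts and day 2 libraries 12976749 to 27302477, so the day 16 values rest on deeper counting in most mice. The tissue label was checked with marker lists. Alveolar type 2 cell markers summed to 24970 to 61898 CPM and club cell markers to 9602 to 36951 CPM over the 19 mice, whereas 14 oesophagus and stomach markers summed to 12.9 to 28.8 CPM and 9 intestine markers to 1.54 to 3.77 CPM, with Cdx2 at 0 reads. CPM stands for a gene's counts scaled by library size, with edgeR's TMM factors, to the usual common total. Mouse numbers in the sample titles form 7 runs of consecutive numbers. All 3 nicotine day 16 mice form 1 run by themselves, so at day 16 nicotine and number run cannot be told apart. At day 2 the nicotine mice form runs 4 and 7 and the saccharin mice runs 5 and 6. No run holds both agents, so the day 2 comparison of agents is also a comparison between runs.

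In saccharin lungs of day 16 the mucus gel genes were high and in day 2 lungs of either group they were low or nearly absent. Muc5ac (chr7:141788972-141819231) encodes the gel-forming mucin that goblet cells add under type 2 signals. Its level in saccharin day 2 lungs was lowest at 1.15, median 2.79 and highest at 3.39 CPM. Nicotine day 2 lungs, replicates 1 to 5, held 3.20, 2.85, 2.12, 2.89 and 2.66 CPM, inside the saccharin range. Saccharin day 16 lungs held 7.57, 5.56, 14.3, 4.94 and 17.6 CPM. Each of them lay above every day 2 lung. Nicotine day 16 lungs held 4.36, 4.57 and 1.70 CPM, all below the lowest saccharin day 16 lung and overlapping both day 2 groups. The saccharin mean of day 16 was 2.82 times the nicotine mean, which was 3.54 ± 1.60 CPM (SD, n = 3). In bulk lung RNA fewer goblet cells and less RNA per cell cannot be told apart, here and for every member.

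Fcgbp (chr7:28071236-28120862) encodes a large mucin-like protein that binds within the gel. Saccharin day 2 lungs held 1.69 to 3.73 CPM with a median of 2.51. Values in nicotine day 2 lungs were 2.37, 2.60, 1.35, 1.8 and 1.65 CPM. The day 2 groups overlapped. In saccharin day 16 lungs Fcgbp was at 10.7, 11.1, 15.9, 6.80 and 17.4 CPM, and in nicotine day 16 lungs at 5.57, 5.66 and 3.23 CPM. The lowest saccharin day 16 lung was above the highest nicotine one, by a narrow margin. Reads of 50 bases can be shared with the near copy 9530053A07Rik. Of 10540 windows of 50 bases in Fcgbp transcripts, 6.42% also occurred in other genes, and 9530053A07Rik itself stayed between 1.35 and 3.55 CPM in all 19 mice.

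Clca1 (chr3:145003817-145032776), a secreted protease that processes mucus and a classic goblet cell product, moved over the widest range of the 9. At day 2 it was nearly unread. In saccharin day 2 lungs 4 of 6 libraries held 0 reads, which at 3 reads allows up to 0.174, 0.215, 0.195 and 0.194 CPM, and the other two held 0.261 and 0.518 CPM. Nicotine day 2 lungs held 0.221, 1.15, 0.322, 0 and 0.059 CPM, and the library at 0 allows up to 0.193 CPM. Those limits cover counting error only. By day 16 the saccharin lungs held 131, 266, 383, 121 and 387 CPM, from 29540 reads in all, while the nicotine lungs held 47.2, 59.1 and 26.0 CPM. Both day 16 groups stood far above every day 2 lung, and they did not overlap each other. The day 16 mean was 258 ± 130 CPM (SD, n = 5) with saccharin and 44.1 ± 16.8 CPM (SD, n = 3) with nicotine, a ratio of 5.84.

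**Figure D1:**
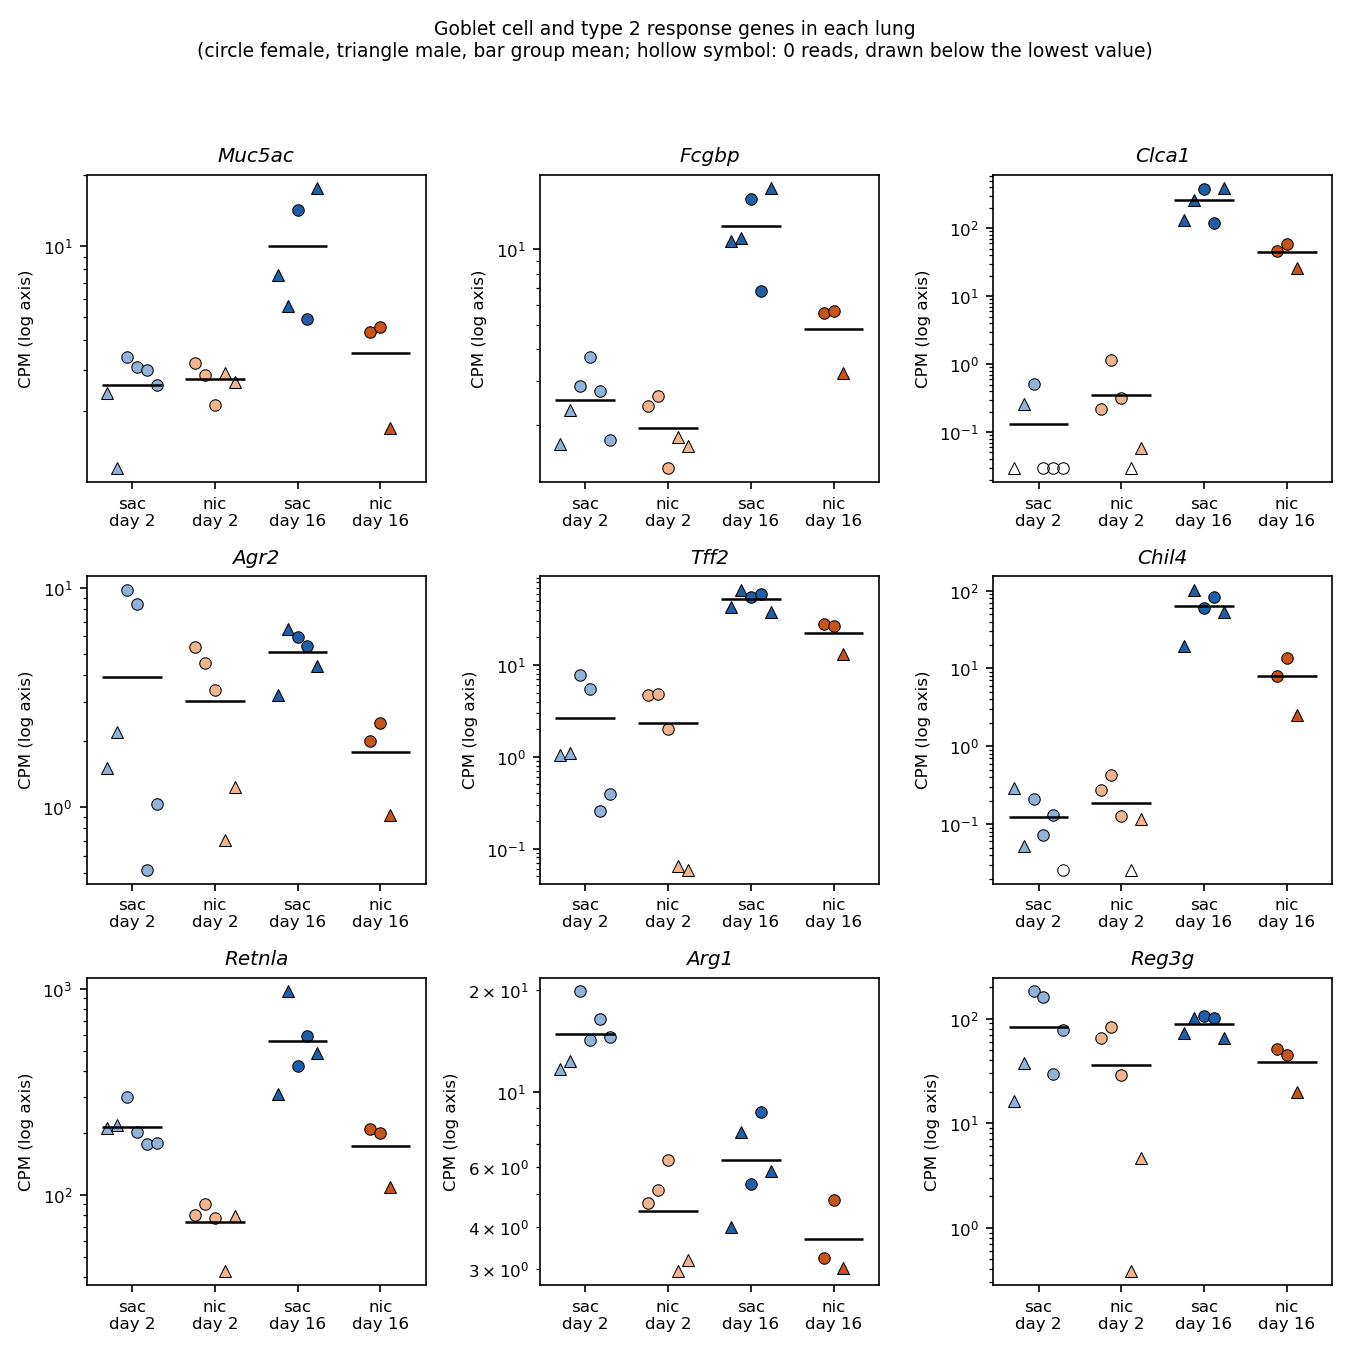
CPM of the 9 genes in every lung on a log axis, 1 panel a gene, with saccharin (sac) and nicotine (nic) groups at day 2 and day 16. Circles are females, triangles males, bars group means, and hollow symbols are libraries with 0 reads drawn below the lowest value. In 8 panels all 3 nicotine day 16 lungs lie below all 5 saccharin day 16 lungs, and Arg1 is the exception.

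Agr2 and Tff2 belong to mucus assembly and repair. Agr2 (chr12:35992907-36004087) is an endoplasmic reticulum protein needed to fold mucins. Its saccharin day 2 lungs held 1.51, 2.19, 9.75, 8.39, 0.519 and 1.04 CPM, with replicates 3 and 4 far above the others. The nicotine lungs of that age held 5.35, 4.54, 3.41, 0.707 and 1.24 CPM, saccharin day 16 lungs 3.25, 6.49, 5.92, 5.41 and 4.37 CPM, and nicotine day 16 lungs 2.0, 2.43 and 0.918 CPM. Saccharin day 2 and day 16 lungs overlapped, so the rise with age that the choice of genes names did not separate the groups for Agr2. Within day 16 the groups did not overlap.

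Tff2 (chr17:31141049-31144282) encodes a trefoil peptide secreted with mucus that takes part in epithelial repair. It was at 1.05, 1.10, 7.84, 5.45, 0.260 and 0.388 CPM in saccharin day 2 lungs. In nicotine day 2 lungs it was at 4.69, 4.78, 1.99, 0.0643 and 0.059 CPM. In saccharin day 16 lungs Tff2 was at 43.0, 65.9, 55.8, 59.4 and 38.3 CPM, and in nicotine day 16 lungs at 28.1, 26.4 and 13.1 CPM. Every day 16 lung of either group exceeded every day 2 lung, and the day 16 groups were apart. Means at day 16 were 52.5 ± 11.5 CPM (SD, n = 5) and 22.5 ± 8.22 CPM (SD, n = 3), a ratio of 2.33.

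Among the type 2 effectors, Chil4 and Retnla were high at day 16 and lower with nicotine, while Arg1 followed another course. Chil4 (chr3:106201490-106219507) encodes a chitinase-like protein without known catalysis, secreted by airway epithelium and macrophages in allergy. In saccharin day 2 lungs it ran from 0 to 0.291 CPM with a median of 0.101. Nicotine day 2 lungs held 0.276, 0.424, 0.129, 0 and 0.118 CPM, which rests on 16 reads in all 5 mice, and the library without reads allows up to 0.193 CPM. Saccharin day 16 lungs rose out of this range to 19.3, 102, 60.3, 82.8 and 52.3 CPM. Nicotine day 16 lungs held 7.88, 13.4 and 2.53 CPM, below all 5 saccharin lungs. The ratio of the day 16 means was 7.97, the widest of the 9 genes.

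Chil4 shares sequence with Chil3, another chitinase-like gene of macrophages. Of 2763 windows of 50 bases in Chil4 transcripts, 304 occurred in other genes and 275 of these in Chil3, so 11% of the transcript cannot be assigned by such a read. The 2 genes did not keep a fixed ratio. Chil4 reads were 2.25%, 8.96%, 6.5%, 8.82% and 7.94% of Chil3 reads in saccharin day 16 lungs and 2.10%, 2.25% and 0.438% in nicotine day 16 lungs. In saccharin day 2 replicate 6, 8828 Chil3 reads stood beside 0 Chil4 reads. In that library the authors' counting put no Chil3 reads on Chil4.

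**Figure D2:**
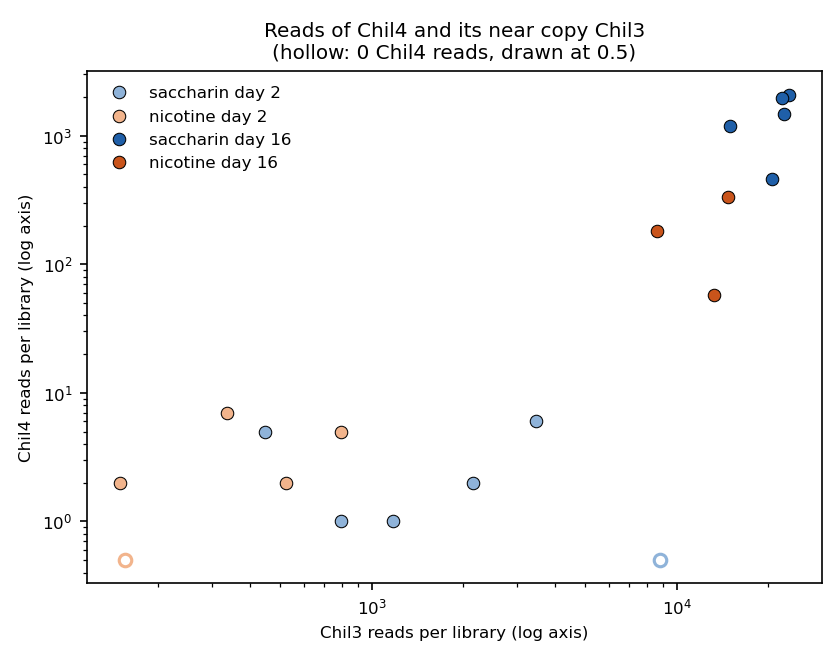
Reads of Chil4 against reads of Chil3 per library, both on log axes, 1 point a mouse. Hollow points are libraries with 0 Chil4 reads, drawn at 0.5. All 3 nicotine day 16 lungs lie below all 5 saccharin day 16 lungs in both directions, and the library with 8828 Chil3 reads has 0 Chil4 reads.

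Retnla (chr16:48842551-48844461) encodes a secreted resistin-like protein of alternatively activated macrophages and airway epithelium, and its promoter is the one shown above with the Stat6 spacing. Saccharin day 2 lungs held 177 to 299 CPM with a median of 207. Nicotine day 2 lungs held 79.8, 90.4, 77.1, 42.8 and 79.0 CPM, all below the lowest saccharin lung of that age. At day 16 the saccharin lungs held 309, 970, 424, 591 and 488 CPM and the nicotine lungs 209, 201 and 110 CPM. Nicotine day 16 lungs overlapped the saccharin lungs of day 2. The order of the group means was saccharin day 16 (557 ± 253 CPM, n = 5), saccharin day 2 (215 ± 44.5 CPM, n = 6), nicotine day 16 (173 ± 55.3 CPM, n = 3) and nicotine day 2 (73.8 ± 18.1 CPM, n = 5), each ± SD. Of these neighbours, the second and the third overlapped.

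Arg1 (chr10:24915221-24927484) encodes the arginase that macrophages induce under type 2 signals, which competes with nitric oxide synthesis for arginine. It went against the rise with age. Saccharin day 2 lungs held 11.7 to 19.8 CPM with a median of 14.4, and saccharin day 16 lungs 4.0, 7.61, 5.35, 8.74 and 5.83 CPM. No day 16 lung reached the lowest saccharin day 2 lung. With nicotine the day 2 lungs held 4.69, 5.15, 6.31, 2.96 and 3.19 CPM, overlapping the day 16 lungs. Nicotine day 16 lungs held 3.22, 4.81 and 3.02 CPM. These overlapped the saccharin day 16 range, and Arg1 was the only one of the 9 whose day 16 groups were not apart.

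Reg3g (chr6:78466269-78468872) encodes a C-type lectin of airway and gut epithelium that binds Gram-positive bacteria. Saccharin day 2 lungs held 16.2, 37.3, 182, 160, 29.7 and 77.9 CPM. Nicotine day 2 lungs held 65.1, 82.9, 29.2, 0.386 and 4.6 CPM, and saccharin day 16 lungs 72.8, 101, 107, 102 and 65.9 CPM. Day 16 saccharin lungs were close to each other and lay inside the wide saccharin day 2 range. Nicotine day 16 lungs held 51.8, 44.9 and 19.8 CPM, all below the saccharin day 16 lungs and within the day 2 ranges. The mean with saccharin at day 16 was 89.7 ± 18.9 CPM (SD, n = 5) and at day 2 83.9 ± 71.0 CPM (SD, n = 6).

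Read against the rule, 6 of 9 members lay higher in every saccharin day 16 lung than in any saccharin day 2 lung, where 10.9% of all tested genes did. Agr2 and Reg3g overlapped, and Arg1 lay lower throughout, as did 8.5% of tested genes. In nicotine mice 5 of 9 lay higher at day 16 without overlap, against 30.4% of tested genes. The day 16 nicotine groups lay below saccharin without overlap for 8 of 9 members, against 1.51% of tested genes. These comparisons share groups of mice, the counts repeat the choice of the genes, and nothing is read from them. Between saccharin day 2 and day 16 lungs 42.8% of tested genes passed edgeR's test at an adjusted p under 0.05. For nicotine at day 16 the percentage of all genes that passed was 0: 0 of 15143 by edgeR, with 311 at an unadjusted p under 0.05, 12 by DESeq2 and 0 by limma-voom. The lower day 16 values thus stand in a comparison in which edgeR called no gene of the table.

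Day 16 log2 fold changes of nicotine over saccharin, from the fit with a term for sex, are given without a test. They were -1.66 for Muc5ac, -1.47 for Fcgbp, -2.77 for Clca1, -2.0 for Agr2 and -1.78 for Tff2. Chil4 stood at -3.36, Retnla at -1.76, Arg1 at -0.91 and Reg3g at -1.99. The median of the 9 was -1.78 and that of all tested genes -0.0018. Replicate 3, the only male among the nicotine day 16 mice, had the lowest value of its group for all 9 genes. Without the sex term the day 16 value was -1.22 for Tff2 and -1.21 for Reg3g.

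The test of nicotine at day 2 did not enter the choice. It called 2 of 9 members, Retnla and Arg1, both lower, where 41.1% of all tested genes were called and 21.7% were called lower. A share of 2 in 9 is below the background of calls in either direction and near that of lower calls. Arg1 fell by 1.73 on the log2 scale (SE 0.19, edgeR adjusted p = 1.7e-05), from a mean of 14.8 ± 2.97 CPM (SD, n = 6) to 4.46 ± 1.4 CPM (SD, n = 5). Retnla fell by 1.54 on the log2 scale (SE 0.26, edgeR adjusted p = 0.00029). For both genes all 5 nicotine lungs lay below all 6 saccharin lungs, as was so for 12.1% of tested genes.

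The other 7 did not pass at day 2. Reg3g had a log2 fold change of -1.44 (SE 0.63, edgeR adjusted p = 0.073), with all 5 nicotine lungs below the saccharin mean and the groups overlapping. Without nicotine replicate 2 its edgeR adjusted p was 0.041, and without saccharin replicate 5 it was 0.042. Agr2 (-0.38, SE 0.54), Tff2 (-0.34, SE 0.70), Fcgbp (-0.33, SE 0.27) and Muc5ac (0.14, SE 0.35) had log2 fold changes within 2 SE of 0. So did Clca1 (0.99, SE 1.01) and Chil4 (0.51, SE 0.93), the members with the fewest reads at day 2 and the widest errors. The median log2 fold change of the 9 was -0.34, and that of all tested genes -0.02.

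**Figure D3:**
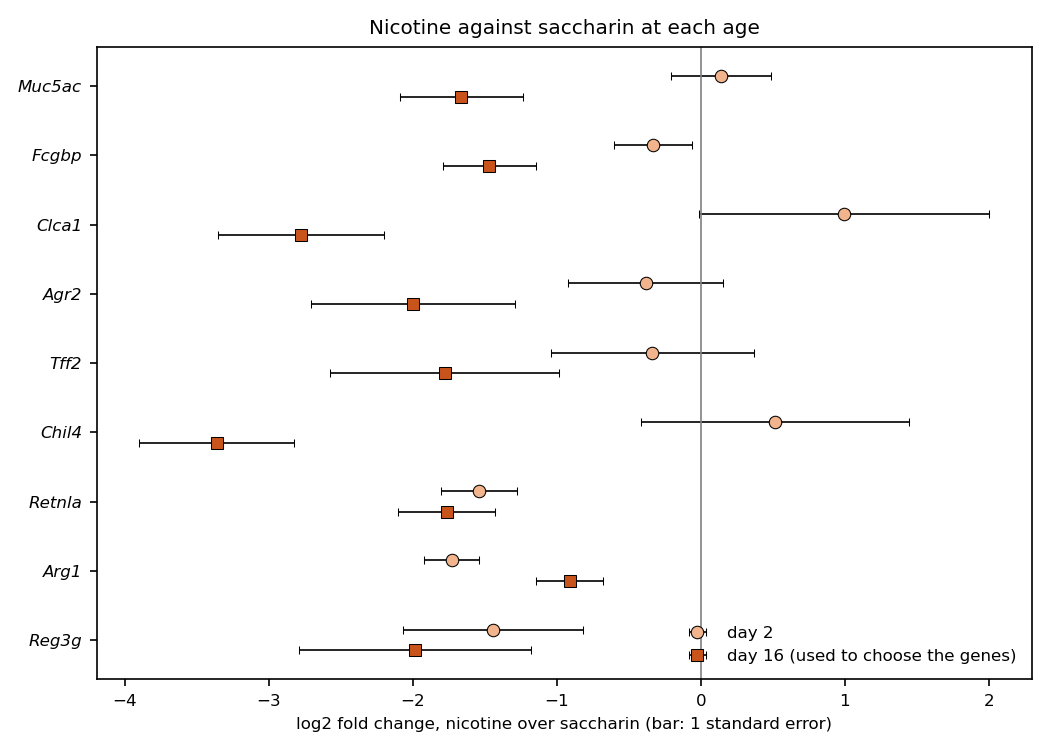
Log2 fold change of nicotine over saccharin for the 9 genes at day 2 (circles) and day 16 (squares), with bars of 1 standard error on each side. Day 16 values chose the genes and lie between -3.36 and -0.91. At day 2 only Retnla and Arg1 passed the test.

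Markers of other cells moved with nicotine at day 2, where 41.1% of all tested genes were called and 21.7% were called lower. Of 10 neutrophil markers 6 were called lower and 0 higher. Their summed level ran from 270 to 591 CPM in nicotine lungs and from 630 to 8667 CPM in saccharin lungs of day 2, with the top value in saccharin replicate 6. Of 12 alveolar macrophage markers 3 were called higher and 5 lower, and the sums were 400 to 495 CPM with nicotine and 564 to 1074 CPM with saccharin. Of 10 club cell markers 8 were called lower and 0 higher, with sums of 9602 to 12553 CPM against 15031 to 27020 CPM. No marker of these 3 lists was at 0 in all mice. Their part in the lower Retnla and Arg1 was not tested. With each mouse left out in turn the Arg1 value stayed between -1.84 and -1.66 and that of Retnla between -1.61 and -1.4, replicate 6 among them, and both stayed called.

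At day 16 the same lists differed less between the groups. Club cell markers summed to 19759 to 28264 CPM with nicotine and 18991 to 36951 CPM with saccharin, so the groups overlapped. Ciliated cell markers summed to 203 to 279 CPM and 223 to 290 CPM. Alveolar macrophage markers summed to 965 to 1217 CPM with nicotine and 1239 to 1930 CPM with saccharin, without overlap, and 0 of 12 were called. Much of that sum was Chil3, at 375 to 598 CPM with nicotine and 659 to 1136 CPM with saccharin. Of the 12 markers 6 had a log2 fold change above 0 and 6 below 0, with a median of -0.07. Neutrophil markers summed to 85.0 to 427 CPM and 70.6 to 194 CPM. Their part in the lower members was not tested.

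Agr2, Tff2 and Reg3g varied together among the day 2 lungs. Saccharin replicates 3 and 4 were the highest lungs of their group for each, and nicotine replicates 4 and 5 the lowest of all nicotine day 2 lungs. Scgb3a1, a secretoglobin of large-airway secretory cells, followed the same mice. It was at 742 and 440 CPM in saccharin replicates 3 and 4, at 191, 153 and 89.1 CPM in nicotine replicates 1 to 3, and at 1.86 and 8.32 CPM in nicotine replicates 4 and 5. Muc5b, the constitutive airway mucin, was at 0.193 and 2.07 CPM in those last 2 lungs and at 5.41 to 29.4 CPM in nicotine replicates 1 to 3. Scgb1a1, the main club cell secretoglobin of the small airways, did not follow: it was at 6004 and 6301 CPM in nicotine replicates 4 and 5 and at 5612 to 7136 CPM in the other 3. Nicotine replicates 4 and 5 were the only males of their group and formed a number run of their own, so sex and run cannot be told apart there. Without them the day 2 value of Reg3g was -0.71 (SE 0.51, edgeR adjusted p = 0.30) and that of Tff2 was 0.29 (SE 0.67), while Arg1 (-1.58, SE 0.24, edgeR adjusted p = 0.00074) and Retnla (-1.41, SE 0.32, edgeR adjusted p = 0.0055) stayed called.

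**Figure D4:**
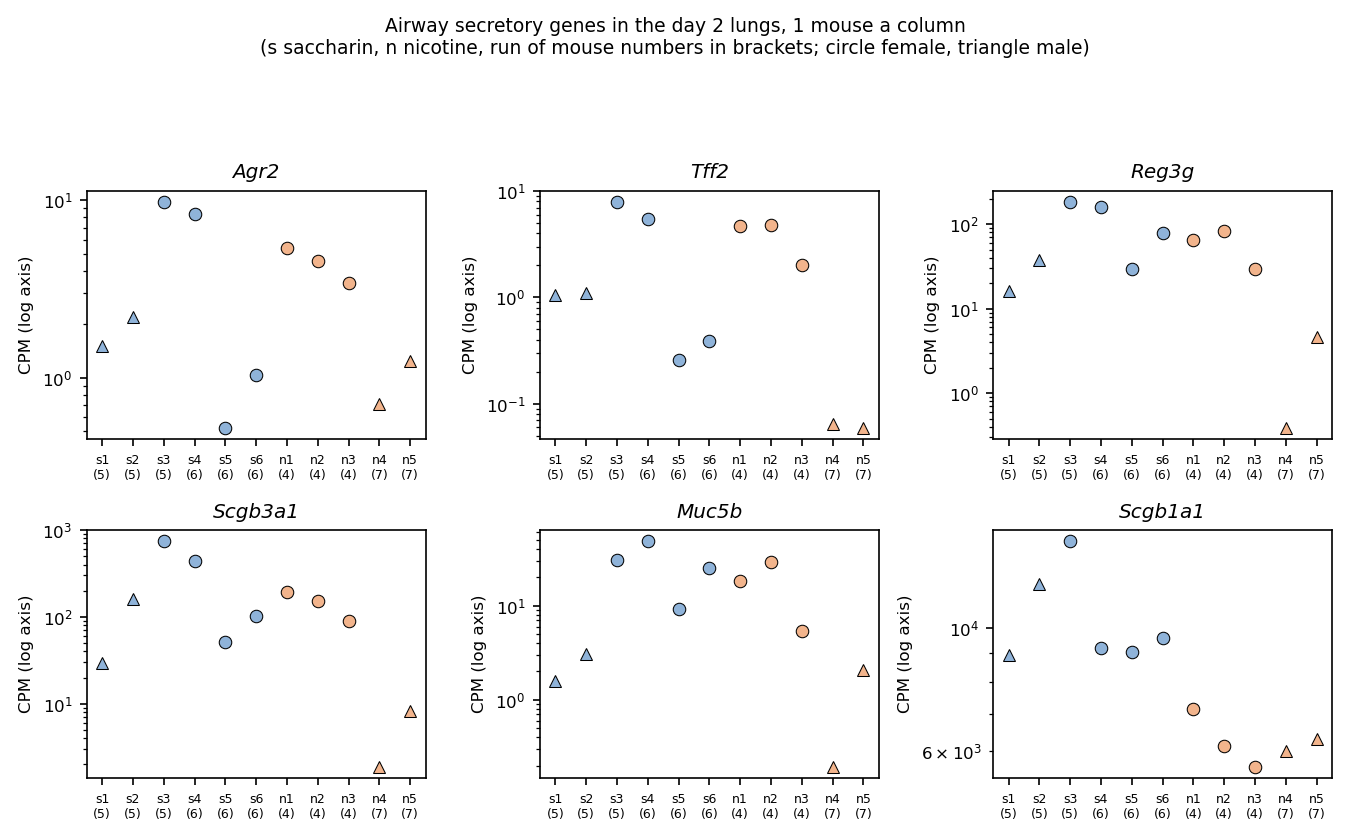
CPM on a log axis of Agr2, Tff2, Reg3g, Scgb3a1, Muc5b and Scgb1a1 in each day 2 lung, labelled by group (s saccharin, n nicotine), replicate and number run in brackets, with circles for females and triangles for males. Nicotine replicates 4 and 5 (n4 and n5) are the lowest nicotine lungs in the first 5 panels, down to 0.059 CPM for Tff2, and not in the Scgb1a1 panel.

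The sex term, which spans both ages and agents, called 0 of 9 members, against 0.0264% of all tested genes, 4 in number. Over all tested genes 916 of 15143 had an unadjusted p under 0.05 for sex in edgeR. Of the members 4 did, all higher in mice labelled female. They were Reg3g (log2 difference 1.97, SE 0.56, edgeR adjusted p = 0.80), Tff2 (1.44, SE 0.57), Agr2 (1.24, SE 0.45) and Arg1 (0.48, SE 0.15), all with that same adjusted p. For each of these 4 genes the female mean was above the male mean in all 4 groups. Single mice overlapped: Tff2 in saccharin day 2 females ran from 0.260 to 7.84 CPM and enclosed both males. The median over the 9 was 0.54. The 2 males of the nicotine day 2 group formed a number run of their own, and the nicotine day 16 group held 1 male.

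Compared per length of exon, Retnla was the most abundant member in every group, with a mean of 929 CPM per kb in saccharin day 16 lungs. Tff2 (89.9 CPM per kb), Clca1 (68.2), Reg3g (42.4) and Chil4 (22.5) followed there, and Agr2 (3.94), Arg1 (2.83), Fcgbp (1.18) and Muc5ac (0.93) stood lowest. In nicotine day 16 lungs Reg3g (18.4 CPM per kb) stood above Clca1 (11.7). At day 2 in saccharin lungs the order behind Retnla (358 CPM per kb) was Reg3g (39.7), Arg1 (6.66), Tff2 (4.59) and Agr2 (3.02), and Clca1 was last at 0.0344.

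**Figure D5:**
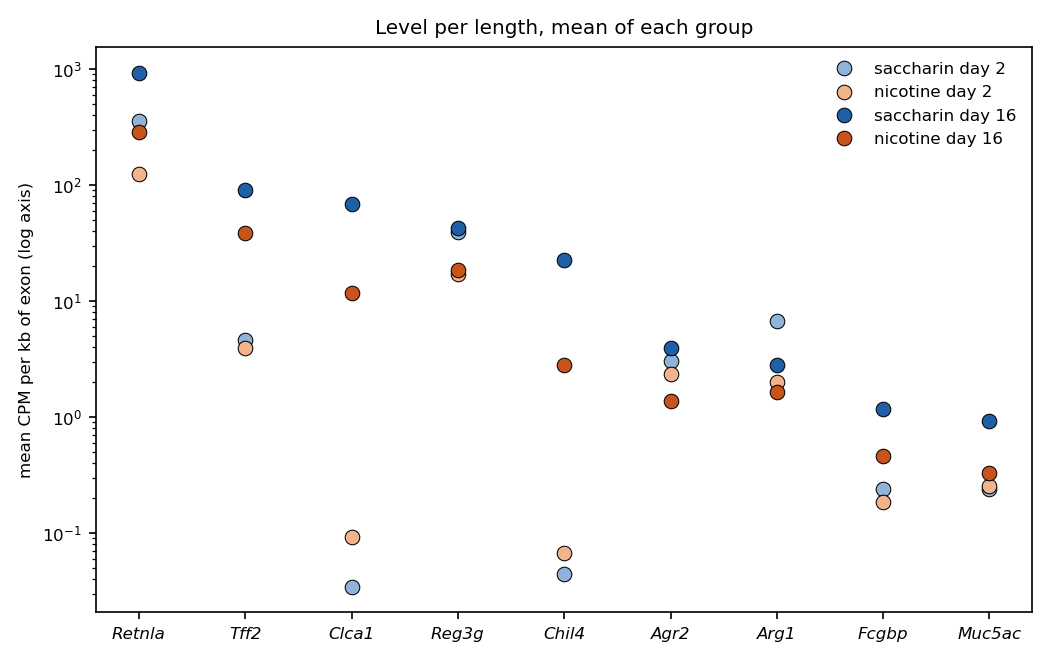
Mean CPM per kb of exon of each gene (log axis) in the 4 groups, ordered by the saccharin day 16 mean. Retnla is highest in each group, from 123 to 929 CPM per kb, and Clca1 and Chil4 span the widest range between day 2 and day 16.

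The families of these genes show which relatives share the pattern. Among 3 other chloride channel accessory genes that passed the filter, Clca3a1 (log2 change -2.81, edgeR adjusted p = 1.7e-05) and Clca3a2 (-5.45, edgeR adjusted p = 2.9e-05) fell with age in saccharin lungs, opposite in sign to Clca1. Clca2 did not pass with age. At day 2 Clca3a1 was lower with nicotine (-0.97, SE 0.34, edgeR adjusted p = 0.031) and Clca2 higher (1.11, edgeR adjusted p = 0.038). Clca3b, Clca4a and Clca4b did not pass the filter on low counts. In the chitinase-like family Chil3 was lower with nicotine at day 2 (-2.65, SE 0.57, edgeR adjusted p = 0.0018) and rose with age in saccharin lungs (3.15, edgeR adjusted p = 0.00048). Chil1, an inflammation marker of epithelium and macrophages (-1.43), and Chia1, the acidic mammalian chitinase (-1.01), were lower with nicotine at day 2, with edgeR adjusted p of 2.5e-05 and 0.00064. Chil5, Chil6 and Chit1 did not pass the filter.

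Of the other resistin-like genes Retnlg, which neutrophils express, was lower with nicotine at day 2 (-2.52, edgeR adjusted p = 0.0024) and with age in saccharin lungs (-1.97), while Retn rose with age (4.51, edgeR adjusted p = 0.00020) at means of at most 1.51 CPM. Retnlb did not pass the filter. Muc5b rose with age in saccharin lungs, from 19.7 ± 18.3 CPM (n = 6) to 92.0 ± 35.8 CPM (n = 5; both ± SD; log2 fold change 3.45, SE 0.83, edgeR adjusted p = 0.0031). In nicotine day 16 lungs Muc5b was at 49.5, 50.9 and 39.8 CPM, by a narrow margin below all 5 saccharin lungs at 52.2 to 125 CPM. Of all tested genes 1.51% lay lower there without overlap. Muc5b did not pass for nicotine at day 16 (-1.61, edgeR adjusted p = 1). Muc1, a tethered mucin, was lower with nicotine at day 2 (-0.55, edgeR adjusted p = 0.0044). Muc4, Muc6 and Muc20 passed in neither comparison, and Muc2 did not pass the filter. Agr3, the ciliated cell relative of Agr2, was lower with nicotine at day 2 (-0.52, edgeR adjusted p = 0.034). Arg2, the mitochondrial arginase, was lower there as well (-2.65, SE 0.49, edgeR adjusted p = 0.00057). No relative of Tff2 or Reg3g passed the filter: Tff1, Tff3, Reg1, Reg2, Reg3a, Reg3b, Reg3d and Reg4 each averaged at most 0.159 CPM in every group.

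The pathway around the members was read from 10 lists that leave the members out, 155 genes in the table of which 138 were tested. With nicotine at day 2, 18 were called higher and 49 lower, with a median log2 fold change of -0.37 against -0.02 over all tested genes, of which 41.1% were called and 21.7% were called lower. With runs of mouse numbers as a random effect 10 of the 138 were called higher and 27 lower. At day 16, 0 passed with nicotine in edgeR and in DESeq2, and the median was -0.09 against -0.0018. With age in saccharin lungs 45 were called higher and 45 lower, where 42.8% of all tested genes passed. Over all 15143 tested genes 2940 were called higher with nicotine at day 2. With age 3108 were called higher and 3378 lower.

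The cytokines at the head of the pathway were barely read. Il4, Il5, Il13 and Il25, named here for their role, averaged at most 0.366 CPM in every group, Il9 had 0 reads, and none passed the filter on low counts. Of the 8 tested cytokines and alarmins 7 were called lower with nicotine at day 2 and 0 higher. The share called lower over all tested genes was 21.7%. Il33, the alarmin of alveolar type 2 cells, went from 167 ± 45.6 CPM (n = 6) to 59.6 ± 9.87 CPM (n = 5, both ± SD; edgeR adjusted p = 2.3e-05). Alveolar type 2 cell markers were lower beside it, with sums of 24970 to 29173 CPM against 33144 to 51370 CPM and 5 of 8 called lower. Alveolar type 1 cell markers summed to 3492 to 4189 CPM against 4496 to 7327 CPM, with 4 of 7 called lower. Their part in the lower Il33 was not tested. Ccl17, a chemokine for type 2 T cells (log2 change -2.63), the growth factor Csf2 (-1.8) and the epidermal growth factor ligand Areg (-1.84) were lower as well, with edgeR adjusted p of 0.00010, 0.00013 and 0.00017. With age in saccharin lungs 5 of 8 fell, among them the eosinophil chemokine Ccl11 (-3.24), and 2 rose. Over all tested genes 3378 of 15143 were called lower with age and 3108 higher.

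Receptors and regulators moved both ways. Of 13 tested receptors 2 were called higher and 5 lower at day 2, the smallest adjusted p belonging to Csf2ra (-0.99), Csf2rb2 (-1.03) and Csf2rb (-1.21), chains of the receptors for granulocyte-macrophage colony-stimulating factor and its relatives, and to Crlf2 (-0.52), a chain of the receptor for thymic stromal lymphopoietin. Of 17 regulators 3 were called higher and 6 lower at day 2. Beside both lists, 41.1% of all tested genes were called at day 2 and 21.7% were called lower. Gata3, the factor of type 2 lymphocytes, rose (1.34) and so did Irf4 (0.82), while Cish, a feedback inhibitor of cytokine signals (-0.97), and Foxa2, which holds back goblet cell fate (-0.55), fell. The edgeR adjusted p of these 4 ran from 0.00026 to 0.00070.

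Of 28 mucous and secretory cell genes outside the member list 2 were called higher and 8 lower with nicotine at day 2. The shares over all tested genes were 41.1% called in either direction and 21.7% called lower. Slc26a4, the anion exchanger pendrin (-3.40, SE 0.57, edgeR adjusted p = 0.00025), and Fxyd3 (-0.66) fell, whereas Postn, a matrix protein of mesenchymal cells that type 2 signals induce, rose by 1.27 (edgeR adjusted p = 0.00064). With age 5 of 28 rose in saccharin lungs and 4 fell, where 42.8% of all tested genes passed. Bpifb1, a secreted airway defence protein, rose by 3.64 on the log2 scale (SE 0.4, edgeR adjusted p = 1.6e-06) from 17 ± 6 CPM (n = 6) to 179 ± 41.8 CPM (n = 5; both ± SD). Atp12a, the proton pump of airway surface liquid, fell (-4.26).

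Of 19 type 2 macrophage genes 4 were called higher and 6 lower with nicotine at day 2, with Mmp12 at -1.70, Ccl7 at -3.67 and Fn1 at 1.10 besides Chil3. Over all tested genes 41.1% were called at day 2 and 21.7% were called lower. With age 10 of 19 rose in saccharin lungs, led by the lectins Cd209a (4.49), Mgl2 (3.58) and Clec10a (2.12) of dendritic cells and macrophages, and 4 fell. All 12 genes of type 2 innate lymphoid cells rose with age, among them Klrg1 (3.62), Icos (2.32) and Il7r (1.61). Over all tested genes 42.8% changed with age, 3108 of 15143 higher and 3378 lower. T cells also express several of the 12 innate lymphoid genes. T cell and thymus markers moved beside them: 2 of 4 tested rose with age, among them Cd8b1 (3.50, edgeR adjusted p = 4.1e-05), and the sum of all 7 went from 7.70 to 21.6 CPM at day 2 to 21.5 to 29.3 CPM at day 16. Their part in the rise was not tested. With nicotine at day 2, 5 of the 12 innate lymphoid genes were called higher, including Nmur1 (1.85) and Ptgdr2 (1.02), and Tnfrsf18 was lower (-0.58). Over all tested genes 2940 of 15143 were called higher with nicotine at day 2. Of the 4 tested T cell and thymus markers 2 were called higher there as well, with a median log2 fold change of 1.49. The sum of all 7 markers was 15.6 to 20.7 CPM with nicotine and 7.70 to 21.6 CPM with saccharin, so the groups overlapped. The part of T cells in these higher values was not tested. Of 11 mast cell and basophil genes 8 fell with age, with the mast cell proteases Tpsb2 at -4.15, Cma1 at -4.12 and Mcpt4 at -4.33, and Gata2 rose by 1.44. Of 8 eosinophil genes Siglecf was called higher (0.77) and Ear6 lower (-1.59) at day 2.

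Mucosal antimicrobial genes, the company of Reg3g, were the list with the most lower calls at day 2. The shares over all tested genes there were 41.1% called and 21.7% called lower. Of 16 tested antimicrobial genes 11 were called lower with nicotine and 0 higher, with a median log2 fold change of -2.25. They included Saa3 (-5.11), Lcn2 (-2.8), Slpi (-2.46) and the cytokine Il6 (-4.98), with edgeR adjusted p from 1.7e-05 to 0.00094. With age in saccharin lungs 11 of 16 fell as well and 1 rose, where 3378 of 15143 tested genes were called lower and 3108 higher. Saa3 averaged 462 ± 378 CPM (SD, n = 6) in saccharin day 2 lungs and at most 14.1 CPM in the other groups. Neutrophil markers were lower beside this list, and S100a9 belongs to both lists. Of the 10 neutrophil markers 6 were called lower with nicotine at day 2, with a median log2 fold change of -2.26. With age in saccharin lungs all 10 were called lower. The part of neutrophils in the lower antimicrobial genes was not tested. Of 15 genes of arginine metabolism, the pathway of Arg1, 1 was called higher at day 2, Ddah1 (1.43, edgeR adjusted p = 7.3e-06), which degrades inhibitors of nitric oxide synthesis. Arg2 and Asl (-0.71) were lower and 12 did not pass.

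Likeness to the members was measured as Pearson's r between a gene's log2 CPM and the mean of the members' standardised log2 CPM over the 19 mice, which share age and agent, so r mostly follows the step with age. Here and for the deviations below, only tested genes above a minimum mean level were ranked. Members and predicted, cloned or unmatched gene symbols were left out. Of the genes ranked, the 10 most like were Ppp1r1b (0.87), Bpifb1 (0.87), Gsto1 (0.86), Muc5b (0.85), Calml3 (0.85), Abhd3 (0.85), Chad (0.84), Tdrp (0.84), Mlph (0.84) and Vipr1 (0.84). Muc5b and Bpifb1 are secreted airway products and Mlph links secretory vesicles to the cytoskeleton. Each member was compared with the mean of the other 8 in the same way, and r was highest for Tff2 (0.88) and Fcgbp (0.87) and lowest for Arg1 (-0.02). With each group's mean removed first, the order among the members changed: Agr2 (0.81), Tff2 (0.80) and Reg3g (0.77) were highest, Arg1 stood at 0.59 and Muc5ac was lowest at 0.25. The genes most like the members in these deviations were Cpne5 (0.84), Tab1 (0.82), Cldn11 (0.80), Art4 (0.80), Actc1 (0.79), Scgb3a1 (0.79), Sord (0.78), Spdef (0.78), Tm4sf5 (0.77) and Pskh1 (0.76). Spdef, the transcription factor of goblet cell differentiation, was itself little changed in level, with means of 2.41 ± 1.11, 1.60 ± 0.559, 2.86 ± 0.340 and 2.58 ± 0.871 CPM (SD) in the saccharin day 2, nicotine day 2, saccharin day 16 and nicotine day 16 lungs, and it passed in none of the comparisons. These are descriptions of 19 mice that share sources of variation, and no p is attached to them.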

How the data were processed

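Lung RNA of 19 mice was sequenced as single-end reads of 50 bases. The values are raw counts per gene, in 1 table that the authors deposited. They used CASAVA 1.8.2, STAR 2.4 and featureCounts 1.4.6 on GRCm38, according to the submitters' processing notes. The annotation release and strand setting were not given in the sources used here. GENCODE M21 gave symbols and positions for 21628 of 21839 identifiers, and the 211 others held 0.041% of counts. After filterByExpr (minimum count 10), 15143 genes entered the quasi-likelihood test of edgeR 4.0.16 in R 4.3.3, with TMM scaling, a robust prior and terms for group and sex over all 19 mice (14 residual degrees of freedom). Benjamini-Hochberg adjustment ran over all tested genes, and an adjusted p under 0.05 passed. The members and lists were chosen with earlier results of these data known. Genes named are the 9 members, their families, up to 4 of smallest adjusted p in a list and the 10 most like the members. In simulated counts for nicotine at day 2 the test found 78% of genes changed 2-fold and 100% of those changed 4-fold (15027 genes, 8 false calls), and for day 16 66% and 95% (15045 genes, 12 false calls). The simulated mice were independent, whereas the fit with runs of mouse numbers gave a correlation of 0.257 within runs. Only genes above a minimum fitted count were changed. The percentages can therefore be too high for the real lungs. Alternatives were other scalings and filters, DESeq2 1.42.0, limma 3.58.1 and omitted mice.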

Additional observations from a re-analysis of the deposited data

Results flagged for a closer look

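Of 27 member and group combinations with 4 or more mice, 3 held a mouse far from the rest of its group by Dixon's ratio, a rule that chance meets in about 1 of 20 groups. Clca1 stood at 1.15 CPM in nicotine day 2 replicate 2, where the other 4 lungs held at most 0.322 CPM. Retnla stood at 299 CPM in saccharin day 2 replicate 3, above the other 5, and at 42.8 CPM in nicotine day 2 replicate 4, below the other 4.

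The nicotine effect at day 16 minus that at day 2 was tested after seeing the data in genes that are not members. Over the whole table edgeR called 874 of 15143 tested genes. Among the 79 tested genes named above 16 were called. Up to 4 genes of each list were named for the smallest adjusted p with nicotine at day 2. That day 2 effect is part of the difference tested. The count of 16 and its signs therefore follow in part from the choice, and nothing is read from them. The log2 difference was above 0 for Areg (1.82), Ccl17 (2.28), Ccl7 (3.71), Chil1 (1.22), Csf2 (1.51), Csf2ra (1.31), Csf2rb (1.43), Foxa2 (0.65), Fxyd3 (0.87), Il33 (1.4), Lcn2 (2.33), Saa3 (4.18) and Slpi (2.29). It was below 0 for Ddah1 (-1.61), Gata3 (-1.50) and Irf4 (-0.81). With runs of mouse numbers as a random effect 2 genes of the table were called, and without nicotine day 16 replicate 3 the count was 3, in both cases with 0 of the pathway genes, to which the genes named here belong except for Chil1. Without nicotine day 16 replicates 1 or 2 the count was 453 or 343, without saccharin day 16 replicates 2, 3 or 5 it was 1312, 245 or 525, without nicotine day 2 replicates 1, 2, 3 or 5 it was 458, 249, 434 or 575, and without saccharin day 2 replicates 1 or 2 it was 2109 or 553. Without both nicotine day 2 replicates 4 and 5 it was 168. DESeq2 called 1750 genes and limma-voom 3143.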

How the results depend on the processing

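Every member was refitted under up to 30 alternatives. None reversed a called value, Retnla and Arg1 at day 2 stayed called in all 30 (highest edgeR adjusted p 0.0055 and 0.00074, without nicotine day 2 replicates 4 and 5, a choice made after seeing the data), and Reg3g at day 2 passed without nicotine day 2 replicate 2 (adjusted p = 0.041) or saccharin day 2 replicate 5 (0.042). Clca1 moved with age from 10.7 to 12.9 with limma-voom and to 12.0 without saccharin day 2 replicate 3. With runs of mouse numbers as a random effect the genes called for nicotine at day 2 went from 6223 to 3229 (in the pathway lists from 18 to 10 higher and from 49 to 27 lower) and those called with age from 6486 to 4112. For nicotine at day 16 the count of called genes was 0 in edgeR and 2 with RLE scaling, 12 with DESeq2, 1 with the CPM filter and 3 without the sex term, and with each mouse left out it ran from 0 to 7 (5 without nicotine day 16 replicate 2, 7 without nicotine day 16 replicate 3). For sex it was 4 in edgeR, 10 with DESeq2, 34 with limma-voom and 0 without nicotine day 2 replicates 4 and 5. The cause of these differences was not tested. No paired analysis was possible because the labels give no number shared between groups. The standard errors of Clca1 and Chil4, with the fewest reads at day 2, were the widest there.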
